A study of Caenorhabditis elegans with 2 samples.

Results

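A set of 210 LIN-26 ChIP-seq peaks lay at tRNA genes of the Caenorhabditis elegans X chromosome. They were taken from the main list of peaks, which was made from both replicates and passed a threshold on the irreproducible discovery rate (IDR, the expected share of peaks that would not recur between replicates). A peak was included when its summit, the position of its highest signal, lay on X within 500 bp of an annotated tRNA gene. Beyond the threshold of the list, the signal was not used in the choice. The list held 3187 peaks on the nuclear chromosomes and 573 on X, so these peaks were 36.6% of the X peaks (95% Wilson interval 32.8% to 40.7%). A further 243 peaks lay at autosomal tRNA genes, and 363 X peaks lay elsewhere.

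The chromatin came from whole young adult worms of strain RW12178 at 64 hours, grown from L1 larvae that had been starved after bleaching. The strain carries a CRISPR insertion of GFP at lin-26 with a loxP-flanked unc-119(+) marker, in the background unc-119(tm4063) III. There were 2 biological replicates of this 1 group, the sex of the worms was not collected, and no other genotype, treatment or age was measured. The description of the samples names an antibody against GFP, whereas the antibody field names lin-26. Whole animals were used, so the lists do not tell which cells a peak comes from. With 1 group there is no comparison of conditions, and the values below are descriptions with counts and intervals. Intervals cover counting error over genes or peaks only. The lists give no read counts, so the sequencing depth behind each peak is unknown.

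The zinc finger protein LIN-26 is required for epidermal cells, and the cells that support neurons, to keep their fates. Genes for tRNAs are transcribed by RNA polymerase III. Their promoters lie inside the gene, in an A box near the 5' end and a B box farther along, which the factor TFIIIC binds. It brings in TFIIIB, which recruits the polymerase just upstream, and transcription ends at a run of T after the gene. The amino acid a tRNA carries is its isotype, and the anticodon is the triplet that reads the codon.

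The gene sequences of 10 named members at a single tRNA gene are shown first. The boxes inside them mark positions against which the summits can be read. All 10 members were among the 10 strongest or were the strongest of their isotype. Each is the gene on its own strand from 5' to 3', from the RefSeq WBcel235 assembly, with matches to the A box and to the B box in capitals. The B box was searched as GTTCNANNC on the gene strand only, and the A box by its consensus pattern within the first bases of the gene. C04A11.t1 is a leucine gene with an intron between the boxes, and it has a single copy.
C04A11.t1: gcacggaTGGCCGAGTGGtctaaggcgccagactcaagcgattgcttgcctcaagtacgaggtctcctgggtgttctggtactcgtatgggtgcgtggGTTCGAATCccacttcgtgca
C33G3.t2: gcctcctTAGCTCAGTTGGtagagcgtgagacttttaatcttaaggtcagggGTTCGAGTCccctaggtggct
C40H5.t1: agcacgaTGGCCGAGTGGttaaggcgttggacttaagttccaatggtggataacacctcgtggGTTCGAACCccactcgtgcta
T07H6.t2: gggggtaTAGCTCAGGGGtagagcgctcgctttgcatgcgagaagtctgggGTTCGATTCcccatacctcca
T28B4.t1: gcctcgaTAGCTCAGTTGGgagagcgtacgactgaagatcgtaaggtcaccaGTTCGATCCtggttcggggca
C18A11.t2: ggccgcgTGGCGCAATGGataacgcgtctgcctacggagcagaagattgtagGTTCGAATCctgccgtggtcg
R04D3.t2: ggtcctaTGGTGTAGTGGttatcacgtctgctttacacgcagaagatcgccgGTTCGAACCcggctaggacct
R11.t1: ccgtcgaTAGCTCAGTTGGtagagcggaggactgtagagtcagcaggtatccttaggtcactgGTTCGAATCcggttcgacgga
ZC449.t1: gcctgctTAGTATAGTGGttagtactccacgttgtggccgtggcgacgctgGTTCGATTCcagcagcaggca
H06A10.t1: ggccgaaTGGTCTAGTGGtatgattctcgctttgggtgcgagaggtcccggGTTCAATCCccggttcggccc
In all 10 genes the A box started at base 8. The B box started at base 52 or 53 in the genes of 72 or 73 bases. It started at base 64 in the 84-base genes C40H5.t1 and R11.t1, and at base 99 in C04A11.t1. R11.t1, a tyrosine gene, is annotated with 2 exons, as is C04A11.t1, and C40H5.t1 with 1.

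Over all 276 annotated X tRNA genes, 268 held a B box match (97.1%, 94.4% to 98.5%) and 256 an A box match (92.8%, 89.1% to 95.3%). In windows of 72 bases taken along X the shares were 1.34% and 0.634%. A run of 4 T within 30 bases after the 3' end followed 273 genes (98.9%), against 34.9% of X windows. A match describes letters in the sequence and not a bound site.

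Of the 276 X tRNA genes, 243 had a summit within 500 bp (88.0%, 83.7% to 91.4%). The same distance held a summit for 832 of 6022 annotated X genes of any class (13.8%), and 2.98% of X bases lay that close to one. The 832 include the tRNA genes themselves and any other genes near the same summits. The list itself was 3.74% of the 85149 nuclear peaks that IDR ranked. Several tRNA genes can share a summit, and the 210 peaks had 207 different nearest genes in 203 separate regions. A summit had 1 tRNA gene within reach in 148 peaks, 2 in 50 and at least 3 in 12. Of the genes, 35 had 2 summits within reach and 5 had 3 or more.

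The deposited signal of the X tRNA peaks had a median of 233, quartiles of 176 and 296, and a range from 5.53 to 568. At autosomal tRNA genes the median was 209, with quartiles of 156 and 272. The other X peaks had a median of 105, and all nuclear peaks 112. Of the 20 strongest X peaks 19 were at tRNA genes, of the 50 strongest 48, and of the 100 strongest 88. Of all 573 X peaks the share was 36.6%. Among the 100 strongest nuclear peaks, 17 were X tRNA peaks, which made up 210 of all 3187 nuclear peaks.

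The strongest X tRNA peak had its summit inside F15G9.t1 (chrX:9743589-9743660, + strand), an alanine gene with anticodon TGC in an intron of him-4, which encodes hemicentin, an extracellular matrix protein. Its signal was 568 in the main list, 215 in replicate 1 and 347 in replicate 2. W03G11.t1 (chrX:12106147-12106219, - strand), a lysine gene with anticodon CTT, followed with 523 in the main list, 201 in replicate 1 and 345 in replicate 2. C28G1.t1 (chrX:8836113-8836184, + strand), a glutamate gene with anticodon TTC, was the only X tRNA gene placed in an exon of a protein-coding gene, C28G1.2, and its peak reached 504, with 171 and 326 in the replicates. The leucine gene C04A11.t1 (chrX:13665555-13665673, + strand), outside protein-coding genes, came next at 486, with 219 in replicate 1 and 261 in replicate 2. In all 4 the signal of replicate 2 was the higher, and signal is not scaled between lists. The remaining members of the first 10 were C33G3.t2 (Lys, 483), R01H5.t1 (Thr, 464), M02F4.t1 (Gly, 464), C40H5.t1 (Leu, 458), T07H6.t2 (Ala, 450.5) and F41D9.t3 (Asn, 446). F41D9.t3 lies in an intron of sulp-3 on the opposite strand. These 10 nearest genes carry 7 amino acids, so the top of the list was not made of copies of a single tRNA. A second tRNA gene lay in reach of the summits at F15G9.t1 (F15G9.t2, Ala) and M02F4.t1 (M02F4.t2, Glu).

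The 5 lowest members were F41D9.t2 (Arg, 79.5), K01A12.t3 (Arg, 58.6), R04D3.t3 (Pro, 17.7), F08F1.t1 (Leu, 10.9) and C52G5.t1 (Val, 5.53). The 3 weakest had summits 124, 170 and 149 bp from the gene and were the only members more than 100 bp away. Each overlapped a stronger peak at the same gene, with signal 124 at R04D3.t3, 146 at F08F1.t1 and 247 at C52G5.t1. These 3 entries are thus second summits at genes that had a higher peak, and the higher peaks of R04D3.t3 and F08F1.t1 were themselves below the lower quartile of 176. Peak width also went with signal. The 111 members of exactly 336 bp had a median signal of 182, and the 99 of other widths had 303.

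**Figure D1:**
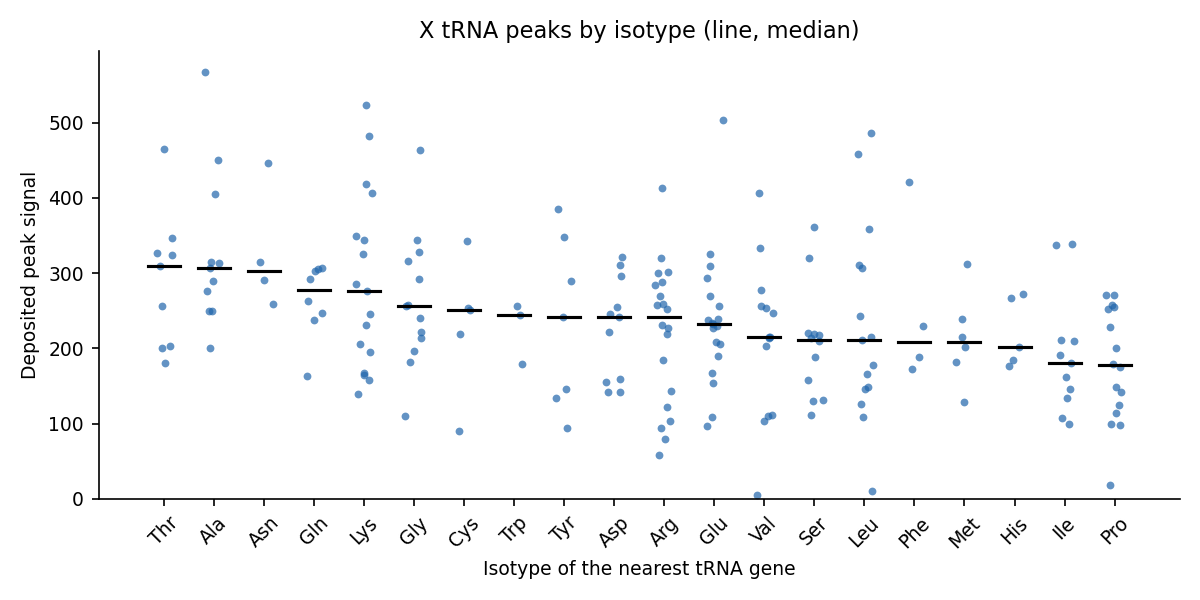
Deposited signal of each X tRNA peak in the main list (vertical axis) by the isotype of its nearest tRNA gene (horizontal axis), ordered by median, with each point a peak and each line a median. Medians run from 310 for threonine to 178 for proline, and points of most isotypes overlap widely.

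All 20 isotypes had at least 3 X peaks. The median signal was highest at threonine genes (310, 9 peaks), alanine (307, 11 peaks) and asparagine (303, 4 peaks). It was lowest at proline (178, 16 peaks) and isoleucine (181, 11 peaks). The ranges of these groups overlapped: threonine peaks ran from 180 to 464 and proline peaks from 17.7 to 271. Among anticodons with at least 3 peaks, Ala-TGC had the highest median (450.5, with a lowest peak of 406), and Lys-TTT reached 407. The plot of signal by isotype shows the spread within each amino acid.

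Outside the first 10, the strongest peak of its isotype was T28B4.t1 for phenylalanine (421), C18A11.t2 for arginine (413), R04D3.t2 for valine (407), R11.t1 for tyrosine (386) and C53C7.t1 for serine (361). It was F42D1.t1 for cysteine (343), C42D8.t1 for isoleucine (339), C06G1.t2 for aspartate (321), C02F12.t1 for methionine (312) and H35N09.t2 for glutamine (307). The lowest of these maxima were ZC449.t1 for histidine (272), H06A10.t1 for proline (271) and C03B1.t1 for tryptophan (257). Every isotype thus had a member above the median of all X tRNA peaks. F42D1.t1 had no matching peak in the ranked list of replicate 1, and C03B1.t1 none in that of replicate 2.

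Of the 12 members with at least 3 tRNA genes in reach, K11E4.t5 was the strongest (349), a lysine gene in an intron of pix-1. H08J11.t3 (Gln, 303) lay in an intron of ajm-1 on the opposite strand. The next were R04E5.t3 (Gly, 256), F12D9.t1 (Cys, 253) and C16B8.t2 (Pro, 253). The 12 had a median signal of 226, against 249 at summits with 1 gene in reach and 215 with 2, so it lay between these. Over the 210 peaks, Spearman's rho between signal and the number of genes in reach was -0.23. Across autosomes no peak of 243 had 3 or more tRNA genes in reach, which allows a share of up to 1.56% (Wilson upper bound).

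**Figure D2:**
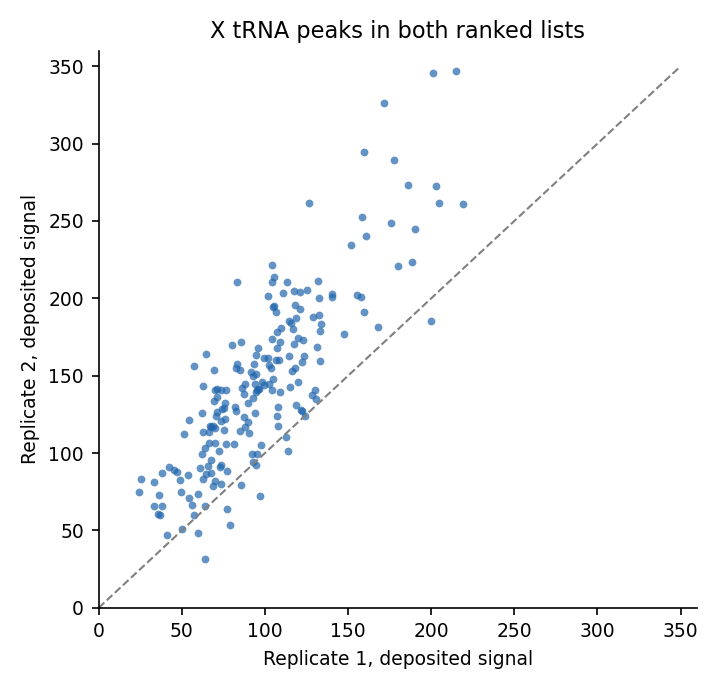
Signal of 199 X tRNA peaks in the ranked list of replicate 1 (horizontal) and of replicate 2 (vertical), with each point a peak and the dashed line marking equal values. Replicate 2 lies above replicate 1 in 188 of the 199 peaks, with a median ratio of 1.51.

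The IDR threshold of the main list favours peaks that recur between the sets of reads compared. The shares and correlations below are thus no independent test of agreement between replicates. Among the peaks so chosen, the replicates gave similar orders. Of the 210 peaks, 172 were matched in both replicates' own thresholded lists, with an overlap of at least 50% of the shorter peak (81.9%, 76.1% to 86.5%). A further 7 were found in replicate 1 only, 21 in replicate 2 only and 10 in neither. At autosomal tRNA genes 171 of 243 peaks were in both lists (70.4%, 64.3% to 75.8%), and among the other X peaks 62 of 363 (17.1%, 13.6% to 21.3%). These sets also differ in median signal in the main list, at 233 for X tRNA peaks, 209 for autosomal tRNA peaks and 105 for other X peaks. Whether signal accounts for the shares was not tested. Of the 105 X tRNA peaks with the higher signal in the main list, itself made from both replicates, 102 were in both. The list called conservative held 199 of the 210. In the ranked lists, which have no threshold, the median signal was 94.4 in replicate 1 (203 peaks) and 141 in replicate 2 (204 peaks). Spearman's rho between the replicates was 0.81 and Pearson's r 0.84 over 199 peaks, as a description across sites of the same libraries. The rank percentile within a list had a median of 99.2 in replicate 1 and 99.4 in replicate 2. K11E4.t5 was an exception to the order of the replicates, with 200.0 in replicate 1 and 186 in replicate 2.

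**Figure D3:**
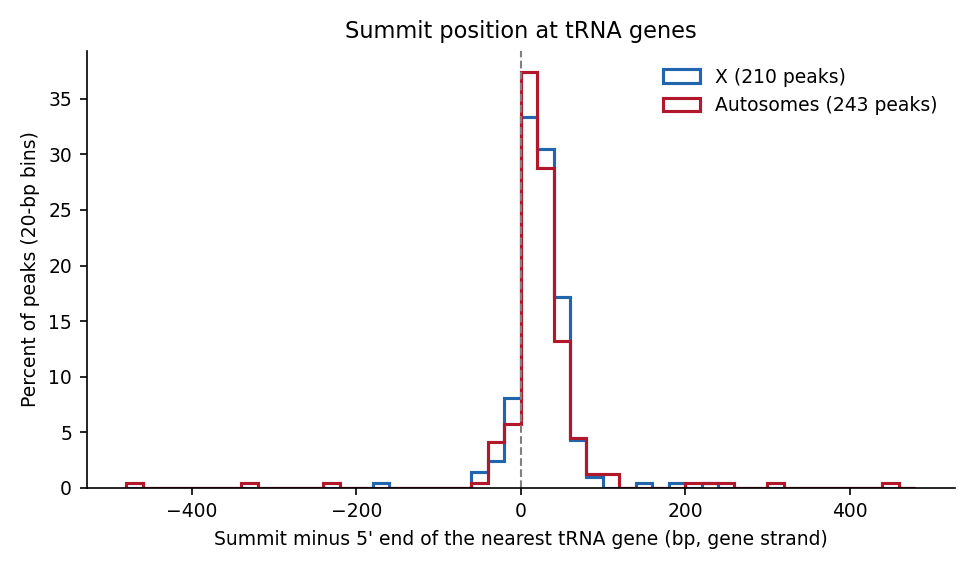
Distance from the 5' end of the nearest tRNA gene to the peak summit, along the gene strand (horizontal, bp), as the percent of peaks in bins of 20 bp (vertical), for 210 X and 243 autosomal peaks. Both distributions peak just inside the gene, with medians of 21 bp on X and 20 bp on autosomes.

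The summits lay inside the tRNA genes, nearer the A box than the B box. The summit was 21 bp past the 5' end in the median, with quartiles of 9 and 37.75 bp. It lay inside the gene in 179 of 210 peaks (85.2%, 79.8% to 89.4%), upstream in 26 and past the 3' end in 5. Within 100 bp of the 5' end were 206 peaks (98.1%, 95.2% to 99.3%). The median start was base 8 for the A box and base 52 for the B box, and in genes without an intron the summit lay 32 bp before the B box in the median (193 peaks). The 11 peaks at genes with an intron had a median offset of 37 bp. Genes on the + strand and on the - strand both had a median of 21 bp, so the offset followed the direction of the gene. Chromatin fragments were 200 to 800 bp long, per the labels, which is longer than a tRNA gene and limits what the offset can resolve between the boxes. At autosomal genes 201 of 243 summits were inside the gene (82.7%, 77.5% to 87.0%).

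The distance that defined the members left a wide gap around it. The farthest members were F08F1.t1, C52G5.t1, R04D3.t3, F41D9.t2 and C53C7.t1 at 170, 149, 124, 69 and 54 bp. No X summit lay between there and 802 bp, where the peak nearest F56F10.t1 (signal 155) was found. The next outside were at 856 bp from F22F1.t1 (96.9), 950 bp from F02D10.t3 (125), 1031 bp from F22F1.t9 (138) and 1053 bp from C16B8.t1 (87.4).

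Most X tRNA genes stand apart from protein-coding genes, and the shares with a summit were close in value where they do not. Outside protein-coding genes 158 of 180 had a summit (87.8%, 82.2% to 91.8%), and in introns 84 of 95 (88.4%, 80.4% to 93.4%). Inside a protein-coding gene on the same strand 44 of 51 had a summit (86.3%, 74.3% to 93.2%), and on the opposite strand 41 of 45 (91.1%, 79.3% to 96.5%). The median signal was 231 in introns (77 peaks) and 233 outside (132 peaks). The intervals overlap in each of these pairs.

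The share with a summit was lower for genes of a single copy. Copies were counted as identical gene sequences in the nuclear genome. On X, 43 of 57 genes of 1 copy had a summit (75.4%, 62.9% to 84.8%), against 200 of 219 with more copies (91.3%, 86.8% to 94.4%). With at least 11 copies it was 128 of 135 (94.8%, 89.7% to 97.5%). On autosomes the counts were 47 of 86 (54.7%, 44.2% to 64.7%) and 212 of 250 (84.8%, 79.8% to 88.7%). Signal itself hardly moved with copy number, with a Spearman's rho of 0.08 over 210 peaks, and the single-copy C04A11.t1 was among the first 4. Single-copy X genes with a peak had a median signal of 214 (33 peaks), and those with at least 11 copies 240 (109 peaks). Reads from identical copies can be told apart only by their flanks. In windows of 50 bases across each gene and 150 bases on each side, the median share unique in the genome was 89.2% at X genes with a summit and 89.8% at those without. Under 50% of windows were unique at 2 of 243 genes with a summit (0.823%, 0.226% to 2.95%) and at 3 of 33 without (9.09%, 3.14% to 23.6%). The 2 with a summit, F28H6.t7 and F28H6.t4, had it 223 and 230 bp away, inside the neighbouring genes F28H6.t2 and F28H6.t5. No summit was thus called inside an X tRNA gene with under 50% of windows unique.

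By isotype, every X gene for aspartate (12 of 12), cysteine (7 of 7) and valine (14 of 14) had a summit within 500 bp. Some of these summits lay nearer another tRNA gene, as at K01A12.t5 (Cys, 204 bp away), F12D9.t6 (Cys, 218 bp), F22F1.t9 (Asp, 242 bp) and C16H3.t2 (Val, 128 bp). The lowest shares were tryptophan (3 of 5), threonine (9 of 14) and phenylalanine (4 of 6). Of 44 anticodons on X, 23 had a summit at every gene and 2 at none. Those 2 were Thr-CGT, with 0 of 3 X genes and 3 of 4 autosomal genes, and Pro-CGG, with 0 of 1 and 3 of 3.

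The Thr-CGT genes are shown because the same sequence stood with and without a peak. They were chosen after their values were seen, as were the other genes of the next 2 sets.
F55G7.t2: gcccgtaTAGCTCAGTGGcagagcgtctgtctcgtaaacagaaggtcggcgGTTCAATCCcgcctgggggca
F55G7.t1: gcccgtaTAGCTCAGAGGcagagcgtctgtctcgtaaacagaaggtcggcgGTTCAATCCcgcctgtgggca
T25B6.t1: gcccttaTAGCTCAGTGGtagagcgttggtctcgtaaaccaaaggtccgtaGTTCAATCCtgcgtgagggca
All 3 hold both boxes. Counted from 1 at the 5' end, F55G7.t1 differs from F55G7.t2 by T16A and G67T. F55G7.t2 (chrX:11935080-11935151) is identical to C24H11.t1 and F14F7.t1 on chromosome III, whose peaks had signals of 282 and 304. Neither F55G7.t2 nor F55G7.t1 had a summit within 500 bp in any of the 4 ranked lists, and the nearest lay 1080 and 2432 bp away. T25B6.t1, which differs from F55G7.t2 at 12 positions, had a ranked peak of signal 80.9 at an IDR of 0.022, short of the threshold.

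The phenylalanine genes gave a like case on X alone. T28B4.t1, shown above, lies in an intron of fbxl-4, and its 73 bases recur in K05G3.t1, K08B5.t1, T25D1.t2 and T27B1.t1 on X. The signal was 421 at T28B4.t1, 172 at K05G3.t1 and 188 at K08B5.t1. T25D1.t2 and T27B1.t1 had no peak in the main list, and their best ranked peaks had signals of 9.51 and 73.0 at IDRs of 0.733 and 0.0125. Of the windows around these last 2 genes 44.8% and 61.4% were unique, against 89.2%, 88.9% and 88.3% around the other 3, and the part of this in the result was not tested. The same sequence on autosomes had peaks at 4 genes of chromosome III, with signals from 121 to 190 and 87.3% to 91.0% of windows unique. ZC412.t1 on chromosome V had no summit although 92.0% of its windows were unique. A single-copy variant in an intron of sto-2 did have a peak, of signal 230.
F32A6.t1: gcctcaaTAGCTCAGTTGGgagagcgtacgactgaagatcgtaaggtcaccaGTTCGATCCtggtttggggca
It differs from T28B4.t1 by G6A and C67T, both outside the boxes.

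A pair of leucine genes with anticodon AAG differ inside the A box, among other positions.
F08F1.t1: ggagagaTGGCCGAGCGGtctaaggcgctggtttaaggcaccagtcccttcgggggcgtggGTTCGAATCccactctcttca
F08F1.t3: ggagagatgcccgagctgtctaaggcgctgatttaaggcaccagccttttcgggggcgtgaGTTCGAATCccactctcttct
F08F1.t1 had a peak of signal 146, and F08F1.t3 had only a ranked peak of 36.2 at an IDR of 0.284. The 8 differences from F08F1.t1 to F08F1.t3 were G10C, G17T, G31A, T45C, C47T, C48T, G61A and A82T. The A box pattern is not found in F08F1.t3. Of 10 X Leu-AAG genes 7 had a summit, and F14B8.t1 and C48C5.t4, which hold an A box match, also had none in the main list. Whether the A box bears on the peak was not tested. Over all X tRNA genes, the A box matched in 230 of 243 with a summit (94.7%, 91.1% to 96.8%) and in 26 of 33 without (78.8%, 62.2% to 89.3%). The pattern matched no X serine gene of anticodon AGA (6 of 8 with a summit), CGA (2 of 2) or TGA (3 of 3). A missing match is thus not read as a missing A box. The other unmatched genes were K01A12.t1 and F52E10.t1 with a summit, and F08F1.t3, C34E11.t1, K02D3.t1, C31E10.t1 and F52E10.t2 without. The B box matched in 236 of 243 (97.1%) and 32 of 33 (97.0%). On autosomes the A box matched in 246 of 259 and in 60 of 77.

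In all, 33 X tRNA genes had no summit in the main list, and some of them had peaks in other lists. In the ranked list that holds the main peaks, 19 of the 33 had a peak within 500 bp (57.6%, 40.8% to 72.8%) and 14 had none. That list is dense, and 69.5% of annotated X genes of any class have a ranked summit that close, so the 19 are not read as a sign of signal at these genes. The first 10 of these 14 along X were Y59E1B.t2, F14B8.t1, C56G3.t1, ZK154.t1, C06E2.t1, D1073.t1, C48C5.t4, C48C5.t2, T25B6.t2 and F47A4.t1. The thresholded lists differed for 5 genes. T25B6.t2, a threonine gene with anticodon TGT, was in the thresholded list of both replicates, with signals of 154 in replicate 1 and 201 in replicate 2. F17H10.t1, a glycine gene, was too, with 116 and 212, although its ranked peak in the list of both had a signal of 8.66. F14B8.t1 (Leu) was in the conservative list with 271 and in that of replicate 1 with 79.1. C56G3.t1 (Ala) and D1073.t1 (Trp) were in that of replicate 2 with 67.4 and 115. With these 5 genes, 248 of 276 had a summit in at least 1 of the 4 thresholded lists (89.9%). Of the 14, 8 had no ranked peak in either replicate's list, among them ZK154.t1, an asparagine gene without a B box match. F28H6.t3 and F28H6.t6, histidine genes chosen after their values were seen, are also among the 8, and 0% and 13.0% of the windows around them were unique. Of 33 sequences carried by several X genes, 21 had a summit at every X copy and 12 at some copies but not others. Of the 33 genes without a summit, 18 had an identical copy with one elsewhere in the nuclear genome.

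**Figure D4:**
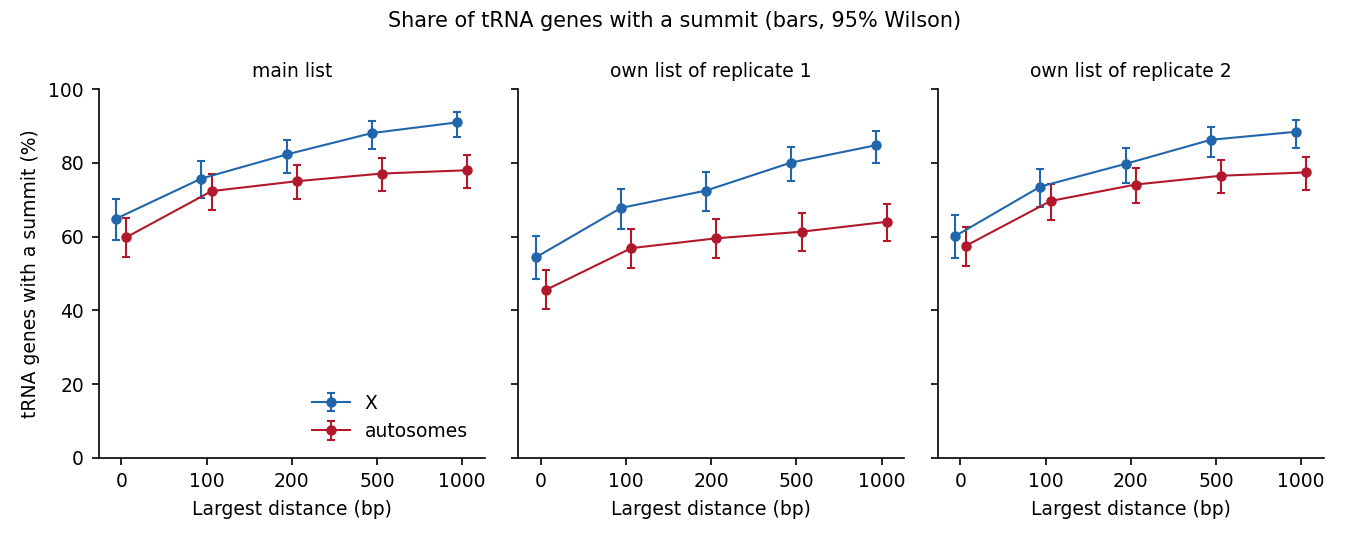
Share of tRNA genes with a summit (vertical, percent) by the largest distance allowed (horizontal, bp, unevenly spaced) for 276 X and 336 autosomal genes, in the main list and in each replicate's own list, with 95% Wilson bars. At 500 bp X stands at 88.0% and autosomes at 77.1% in the main list, and at 100 bp they stand at 75.7% and 72.3%.

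The share of tRNA genes with a summit was higher on X than on autosomes at 500 bp, and the gap depended on the distance. On autosomes 259 of 336 genes had a summit (77.1%, 72.3% to 81.3%). In replicate 1 the shares were 80.1% on X and 61.3% on autosomes, and in replicate 2 they were 86.2% and 76.5%, so both replicates gave the same order. At 100 bp the main list gave 75.7% on X (70.3% to 80.4%) and 72.3% on autosomes (67.3% to 76.8%), with overlapping intervals. X tRNA genes lie closer together: 108 of 276 had another tRNA gene within 500 bp (39.1%), against 62 of 336 on autosomes (18.5%). Among genes with no other tRNA gene that close, 139 of 168 on X (82.7%, 76.3% to 87.7%) and 199 of 274 on autosomes (72.6%, 67.1% to 77.6%) had a summit at 500 bp and at 100 bp alike. The difference between X and autosomes was not tested, since genes are not replicates and the study has 2 samples.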

How the data were processed

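ChIP-seq peak lists of lin-26::GFP from 2 biological replicates of whole young adult worms at 64 hours were the starting point. Per the text deposited with them, the 8 lists use assembly ce11: a ranked and a thresholded list for each replicate, and 2 ranked, 1 thresholded and 1 conservative list from both replicates. All were made against a control. The sources used here name no peak caller, aligner or threshold. Signal, as deposited, is the caller's value over the control, with no scaling across lists. The lowest deposited score in the main list is 830, and ranked peaks at or above it reach an IDR of 0.01. Recounts at other thresholds used the deposited −log10 IDR. A further 4 columns of signal of unnamed inputs in the whole-series ranked lists were not used.

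The ranked list used holds all 3187 nuclear peaks of the main list, and the other holds 3156. Peak ends lay within the WBcel235 chromosome lengths. tRNA genes came from Ensembl release 115, and isotypes from RefSeq through WormBase identifiers for 273 of 276 X genes. Anticodons were read from the spliced sequence and kept where they fit the isotype, for 272. Coordinates are counted from 1. Shares have 95% Wilson intervals. No test was run across regions, which are not replicates. Assignment was tested on simulated data: of 119 simulated summits at X tRNA genes, all 57 placed within 500 bp returned their gene, distance and offset. Tools were pandas 2.3.3, numpy 2.4.6, matplotlib 3.10.9 and scipy 1.17.1 under Python 3.11.15.

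The members, motifs and lists were chosen with earlier results of these data known. Named genes were the 10 strongest and 5 weakest members, the strongest of each isotype, up to 5 with at least 3 tRNA genes in reach, members over 200 bp from the gene (none was found), the 5 nearest the distance on each side, and up to 10 X tRNA genes without a ranked peak. Sequences are printed for named members at a single tRNA gene with no identical copy on chromosome I. Others are said to be chosen after their values were seen. Alternatives covered the lists, distance, IDR, overlap, copies, isotypes, single-gene peaks and motif mismatches.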

Additional observations from a re-analysis of the deposited data

How the results depend on the processing

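The 210 peaks numbered 187 and 201 in the single replicates' lists, 200 in the conservative list, 207 to 213 at distances of 100 to 1000 bp, and 204, 214 and 216 at IDRs of 0.005, 0.02 and 0.05. The share of X tRNA genes with a summit, 88.0%, ranged from 80.1% to 86.2% in the single replicates, and the autosomal share, 77.1%, from 61.3% to 76.5%. The X share was 75.7% at 100 bp, 82.2% at 200 bp and 75.4% for genes of 1 copy. The alternative of a summit in any of the 4 thresholded lists, chosen after seeing the data, gave 89.9%. The median rank percentile of X tRNA peaks was 86.5 in the main list and ranged from 69.4 to 79.2 in the single replicates. Their lists are shorter (1191 and 2083 nuclear peaks against 3187), and whether length accounts for the shift was not tested. The median offset stayed at 21 to 23 bp, and the share within 100 bp of the 5' end at 97.5% to 98.5%. The share of peaks in both replicates' lists, 81.9%, was 59.5% when the whole shorter peak had to overlap and 97.1% for the stronger peaks. With 1 mismatch allowed, the B box matched in 100% of X tRNA genes. The share of X windows was not counted at 1 mismatch, so this value has no background beside it. For the other moved values the cause was not tested either. Unknown depth limits what absence from a list can show. No paired analysis was possible because there is 1 group.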
